A study of Bos taurus with 31 samples.

Results

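The cell division genes described here are a list of genes whose products copy the DNA or carry out mitosis. The list holds 40 symbols, and members were the genes of the count table with these symbols. Of the 40, 39 had a row among the 24616 genes of the table and all 39 passed the filter of at least 20 reads summed over the cows, which left 15916 genes for testing. No row carried the symbol MKI67, the gene of the Ki-67 proliferation antigen, so that it was not analysed here. Total RNA of liver from 31 lactating German Holstein cows was sequenced, with 1 library per cow. The cows fell into 4 feeding groups that combined glyphosate (GLY, a herbicide that reached the cows through contaminated feed) or control feed without added glyphosate (CON) with a high (HC) or low (LC) concentrate feed proportion (CFP). There were 8 cows in CONHC, 8 in CONLC, 8 in GLYHC and 7 in GLYLC. The trial asked how glyphosate residues and CFP affect the liver.

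A dividing cell first loads the MCM helicase onto its replication origins, then copies the DNA with nucleotides supplied by enzymes such as ribonucleotide reductase, and finally separates the copied chromosomes on a spindle under the control of CDK1, its cyclins and the Aurora and Polo kinases. Most of these genes are transcribed only in cells that are in the cycle, and the transcripts of the mitotic genes peak late in it. Hepatocytes of the adult liver divide rarely, while resident macrophages and other non-parenchymal cells can also divide. In RNA of whole tissue, more cells of a cycling type and more RNA of these genes per cell cannot be told apart.

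The reads that fell in genes numbered 11675775 in the shallowest library and 36675542 in the deepest (median 19781078), a thin depth for the cell division genes. The median number of reads per cow was under 20 in 21 of the 39 genes, and 34 of the 39 had at least 1 read in every cow. Levels are given as CPM, the read count of a gene relative to the assigned reads of its library after TMM scaling. CPM depend on transcript length, so that differences are read between cows. The order of genes by mean CPM is one of reads and not of transcript numbers. The genes with the highest mean CPM were PCNA, the sliding clamp of the DNA polymerases, with 22.1 CPM, KIF23, a kinesin of the midbody in cytokinesis, with 19.0 CPM, TYMS, which makes thymidylate, with 13.5 CPM, and the helicase subunit MCM3 with 7.17 CPM. The genes with the lowest mean were the spindle checkpoint kinase TTK with 0.395 CPM, the mitotic transcription factor FOXM1 with 0.398 CPM, the kinesin KIF2C with 0.430 CPM and the licensing factor CDC6 with 0.433 CPM. For these 4 genes the median cow had 7, 7, 7 and 6 reads.

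The cell division genes varied more between cows of the same group than most genes did. The median SD of log2 CPM within groups was 0.878 over the 39 genes, against 0.34 over all genes tested. The biological coefficient of variation estimated by edgeR was 0.564 at the median of the 39 genes, against 0.222 over all genes tested and against 0.441 for the trend at the levels of these genes. It lay above the trend in 30 of the 39 genes, a count that was not made over all genes tested. The lowest coefficients were those of the Polo kinase PLK1 (0.146), PCNA (0.163), TYMS (0.221), the cyclin CCNE2 (0.254), the Aurora kinase AURKA (0.267) and MCM3 (0.27), of which PLK1 and CCNE2 are named after their values were seen. These genes did not all have many reads, as CCNE2 had a mean of 2.01 CPM and AURKA of 2.02 CPM.

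TOP2A, the topoisomerase that untangles copied chromosomes, shows the pattern of the list. In CONHC it had 1.58 CPM in the lowest cow, 3.55 in the median and 13.7 in the highest. In GLYHC these values were 1.19, 5.37 and 10.8 CPM. The LC groups had lower maxima, with 1.45, 3.35 and 7.35 CPM in CONLC and 1.17, 3.16 and 5.39 CPM in GLYLC. All 4 groups overlapped, and 5 HC cows (CONHC cows 41, 133 and 208 and GLYHC cows 131 and 152) had more TOP2A than any LC cow.

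**Figure D1:**
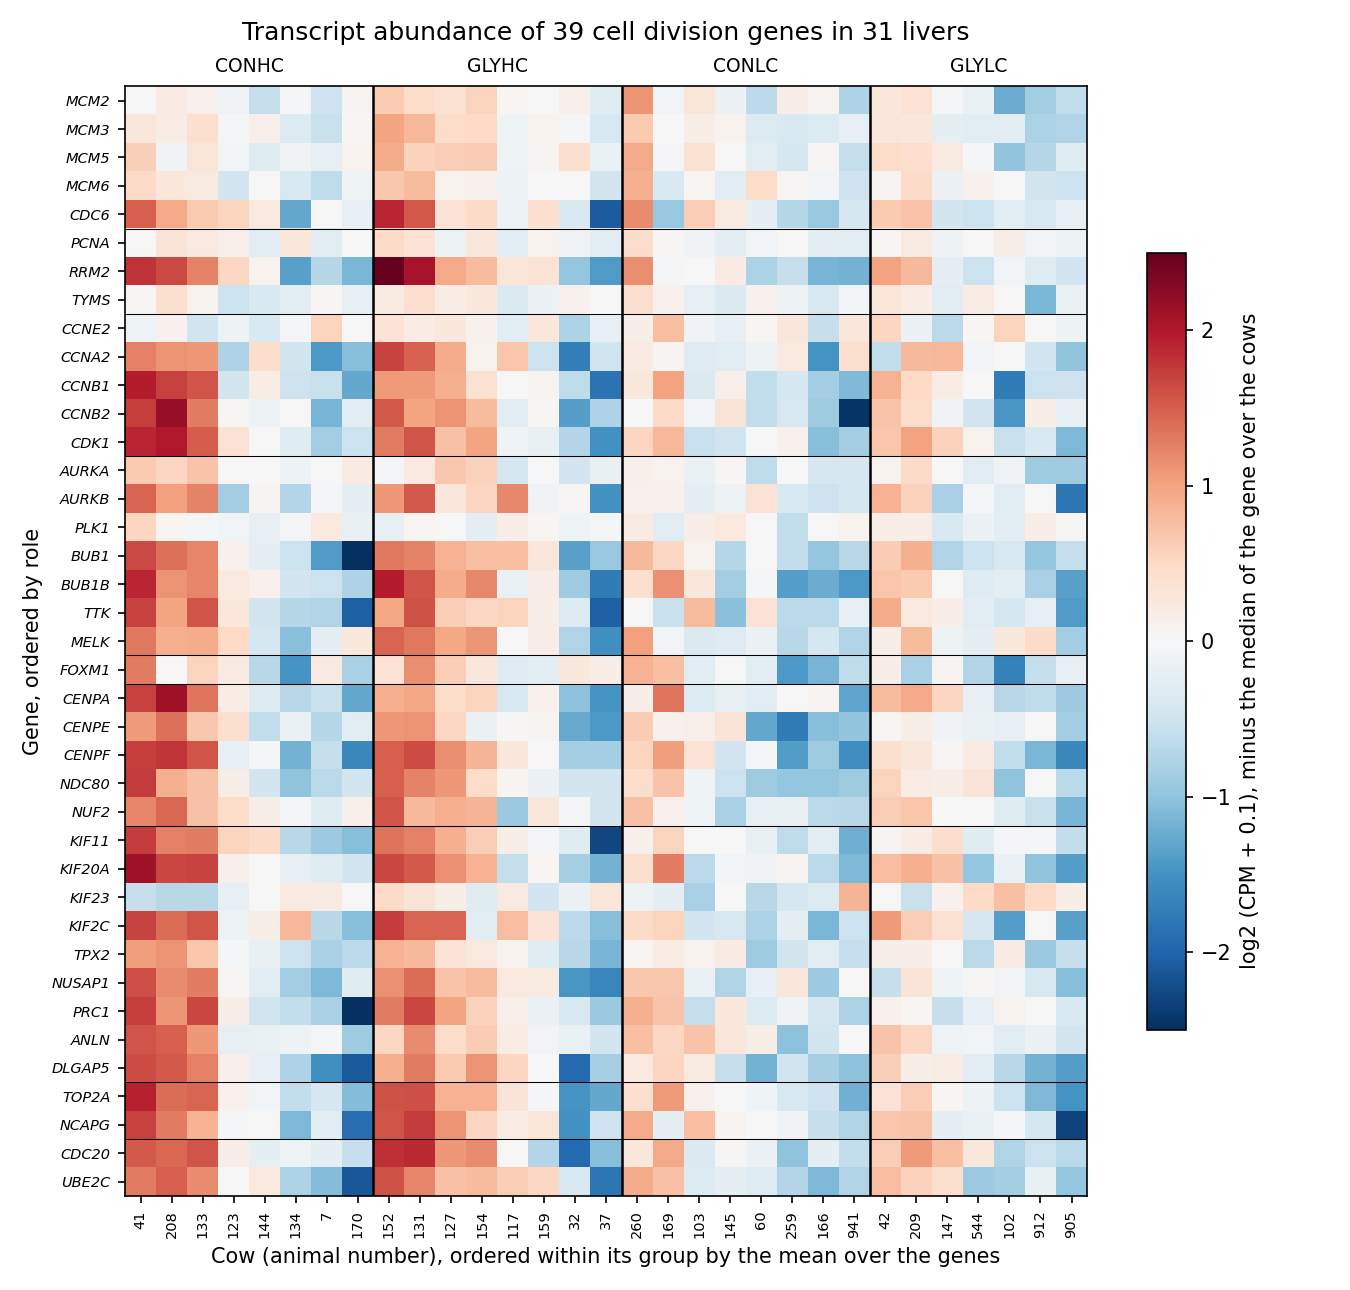
Transcript abundance of the 39 cell division genes (vertical axis, by role, with thin lines between roles) in the 31 cows (horizontal axis, by group and, within it, from the highest to the lowest mean). Colour gives log2 of CPM plus 0.1, minus the median of the gene over the cows, with colours saturated at 2.5 in either direction. Most genes are red in the same cows, above all in CONHC cows 41, 208 and 133 and GLYHC cows 152 and 131.

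Most of the 39 genes were high in the same cows. As a summary of a cow, log2 CPM of each gene was centred on its median over the cows and averaged over the 39 genes. This mean ran from -0.778 to 1.25 in CONHC with a median of -0.05, from -0.94 to 1.14 in GLYHC with a median of 0.307, from -0.658 to 0.516 in CONLC with a median of -0.228 and from -0.802 to 0.43 in GLYLC with a median of -0.19. The HC groups had the wider range, with an SD of 0.755 over the 16 HC cows against 0.43 over the 15 LC cows. The mean was above that of the highest LC cow (CONLC cow 260) in 7 of the 16 HC cows, namely 3 of CONHC and 4 of GLYHC. The lowest value of all also belonged to an HC cow, GLYHC cow 37. The 5 cows with the highest means (CONHC cows 41, 208 and 133 and GLYHC cows 152 and 131) had between 11713412 and 18735563 assigned reads, all below the median of the libraries, and the next 2, GLYHC cows 127 and 154, had 32775144 and 30488718. The part of depth in these means was not tested beyond its correlation with TOP2A, given with the cell type markers.

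Of the 39 genes, 34 were highest in an HC cow and 5 in an LC cow. CONHC cow 41 was the highest for 13 genes, GLYHC cow 152 for 10, CONHC cow 208 for 6 and GLYHC cow 131 for 4. For 25 genes at least 5 HC cows exceeded every LC cow, but for none of the 39 were the HC and LC cows separated. None of these counts was made over all genes tested. They therefore describe the members only and do not show how unusual the members are. The genes that were highest in an LC cow were MCM2, MCM5 and MCM6 (CONLC cow 260), CCNE2 (CONLC cow 169) and KIF23 (CONLC cow 941), some of them named after their values were seen.

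**Figure D2:**
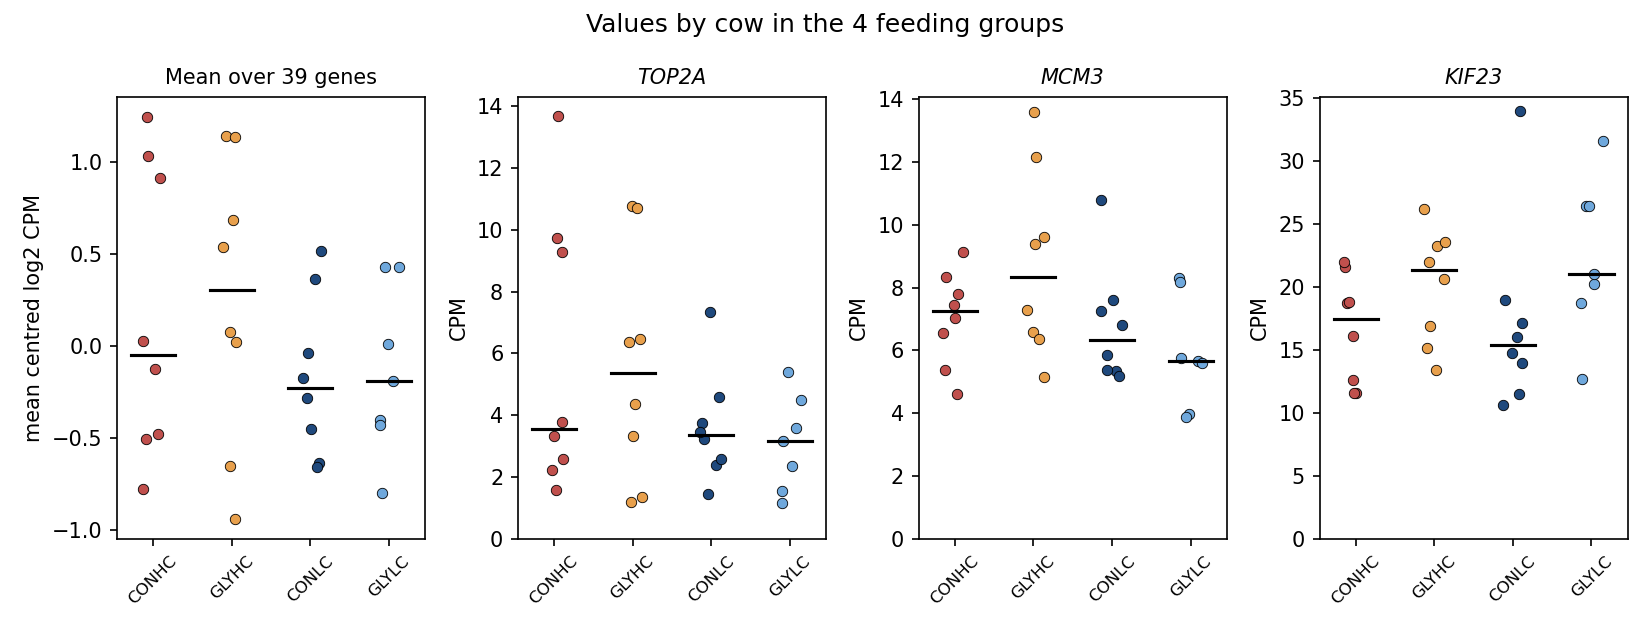
Values of each cow (points) in the 4 feeding groups, with the median of the group as a bar. The panels give the mean of centred log2 CPM over the 39 genes and the CPM of TOP2A, MCM3 and KIF23, and in each of them the groups overlap. In the first 2 panels the highest cows belong to CONHC and GLYHC, whereas KIF23 is highest in a CONLC cow.

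Over the 31 cows, transcript abundance of most of the genes followed that of TOP2A. TOP2A was taken as the reference after the table was seen to hold no row for MKI67. Pearson's r of log2 CPM with TOP2A had a median of 0.818 over the other 38 genes and was above 0.7 in 29 of them. The correlation was positive at an adjusted p under 0.05 in 35 of the 38 genes by Pearson's r and also in 35 by Spearman's rho (two-sided permutation tests with 100000 resamples, Benjamini-Hochberg adjustment over 38 genes). The median r of TOP2A with all genes tested was -0.024. The share of all genes tested that reached these levels was not computed, so that the counts describe the members only. After subtraction of the group means the median r was 0.82, so that cows of the same group differed in the same way.

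The 2 genes with the highest r were CENPF and BUB1B. CENPF, a kinetochore protein of late G2 and mitosis, had r = 0.949 and rho = 0.94, and BUB1B, a checkpoint kinase that guards chromosome attachment, had r = 0.933 and rho = 0.931. CDK1, the kinase that drives entry into mitosis, had r = 0.916 and rho = 0.902. KIF20A and DLGAP5, which act on the spindle and in cytokinesis, lay between BUB1B and CDK1 with r = 0.924 and r = 0.92 and are named after their values were seen. For CENPF, BUB1B and CDK1 the permutation p was 1e-05, the smallest that the resamples can give, and r without the 2 cows farthest from the median of TOP2A was 0.938, 0.916 and 0.894. Over the 29 genes with r above 0.7, r without those 2 cows was at least 0.65.

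The 9 replication genes had a median r of 0.604 with TOP2A and 3 of them lay above 0.7, while the 29 mitosis genes other than TOP2A had a median r of 0.839 with 26 above 0.7. The difference between both groups was not tested. The replication genes with the highest r were RRM2, the inducible subunit of ribonucleotide reductase (r = 0.878, rho = 0.892, permutation p = 1e-05), and MCM3 (r = 0.769, rho = 0.81, permutation p = 1e-05), followed by CDC6 (r = 0.722). MCM2 had r = 0.552 (permutation p = 0.00116, adjusted p = 0.00134) and rho = 0.627 (permutation p = 0.00023), and PCNA had r = 0.557 (permutation p = 0.0012, adjusted p = 0.00134) and rho = 0.543 (permutation p = 0.00185). There were 3 genes that stood apart, all singled out after their values were seen. CCNE2, the cyclin E2 of the G1/S transition, had r = 0.205 (adjusted permutation p = 0.276) and rho = 0.173 (adjusted permutation p = 0.361). PLK1 had r = 0.168 (adjusted permutation p = 0.369) and rho = 0.142 (adjusted permutation p = 0.446). KIF23 ran the other way with r = -0.374 (permutation p = 0.0378, adjusted p = 0.0399) and rho = -0.371 (permutation p = 0.0397, adjusted p = 0.0419), and with r = -0.403 without the 2 farthest cows.

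**Figure D3:**
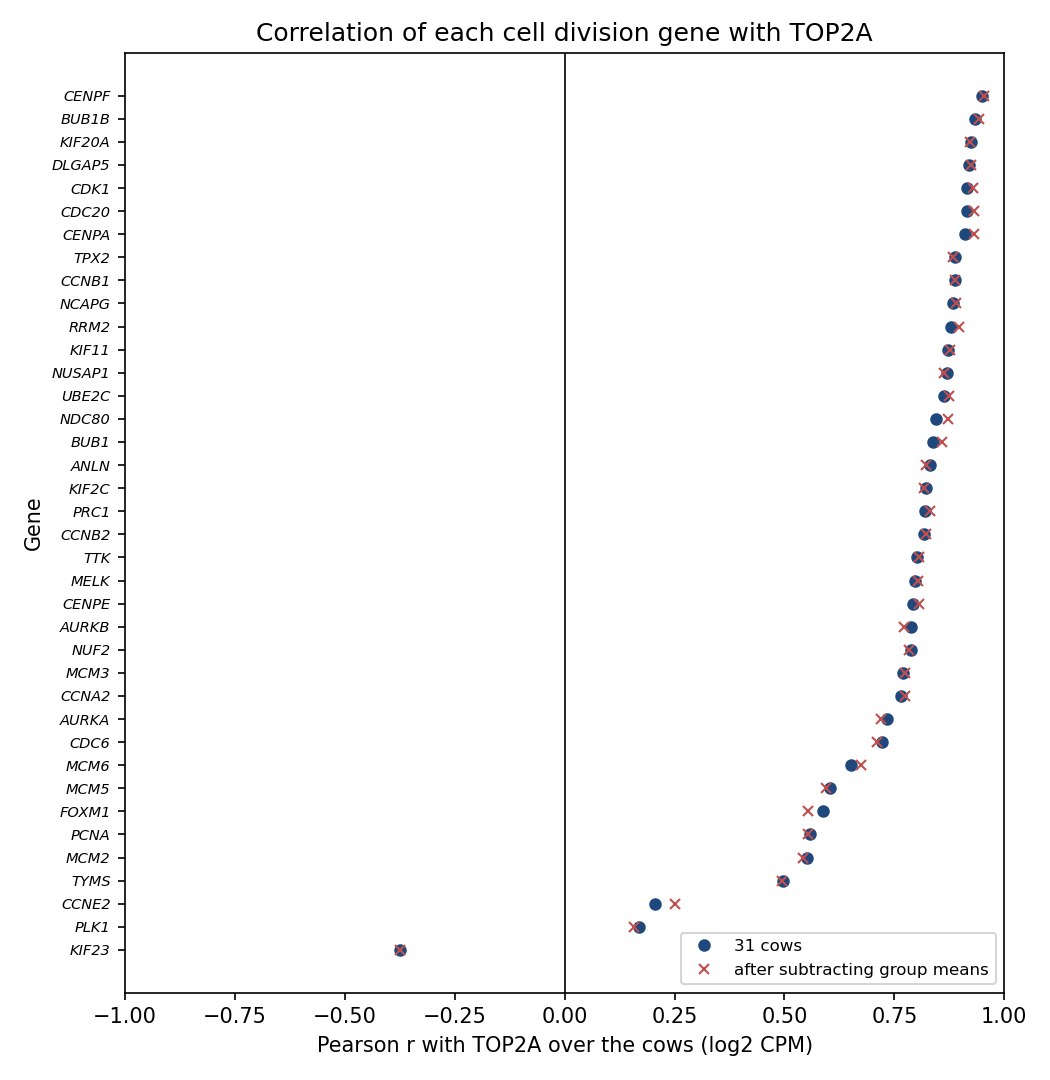
Pearson's r of log2 CPM of each of 38 cell division genes (vertical axis) with TOP2A over 31 cows, before (filled circles) and after (crosses) subtraction of the group means. The 2 sets of points nearly coincide, 29 genes lie above 0.7, and KIF23 alone lies below 0.

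The effect of CFP was examined first, by comparing HC with LC groups with treatment as a covariate. Most of the 39 genes had higher fitted levels in HC groups, by 1.54-fold at the median of the list, but none passed the test. Of the 39 genes, 0 were called differentially expressed in edgeR's quasi-likelihood test (p under 0.05 and Benjamini-Hochberg adjusted p under 0.1), against 1.45% of all genes tested. At an unadjusted p under 0.05, 14 of the 39 (35.9%) were higher in HC groups, where 5.88% of all genes tested were, and 0 were lower, where 7.81% of all genes were. DESeq2 also called 0 of the 39 and gave 17 that were higher at an unadjusted p under 0.05. The median log2 fold change was 0.62 over the 39 genes and -0.01 over all genes tested, and 37 of the 39 estimates were above 0, against 46% of all genes. Since the genes moved together from cow to cow, these counts do not stand for 39 independent measurements. The count of 14 depended on single cows: it was 6 without CONHC cow 41, 8 without CONHC cow 208, 8 without GLYHC cow 152 and 9 without GLYHC cow 131, but 22 without CONHC cow 170, 23 without CONHC cow 7, 23 without GLYHC cow 32, 24 without CONLC cow 260 and 25 without GLYHC cow 37.

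**Figure D4:**
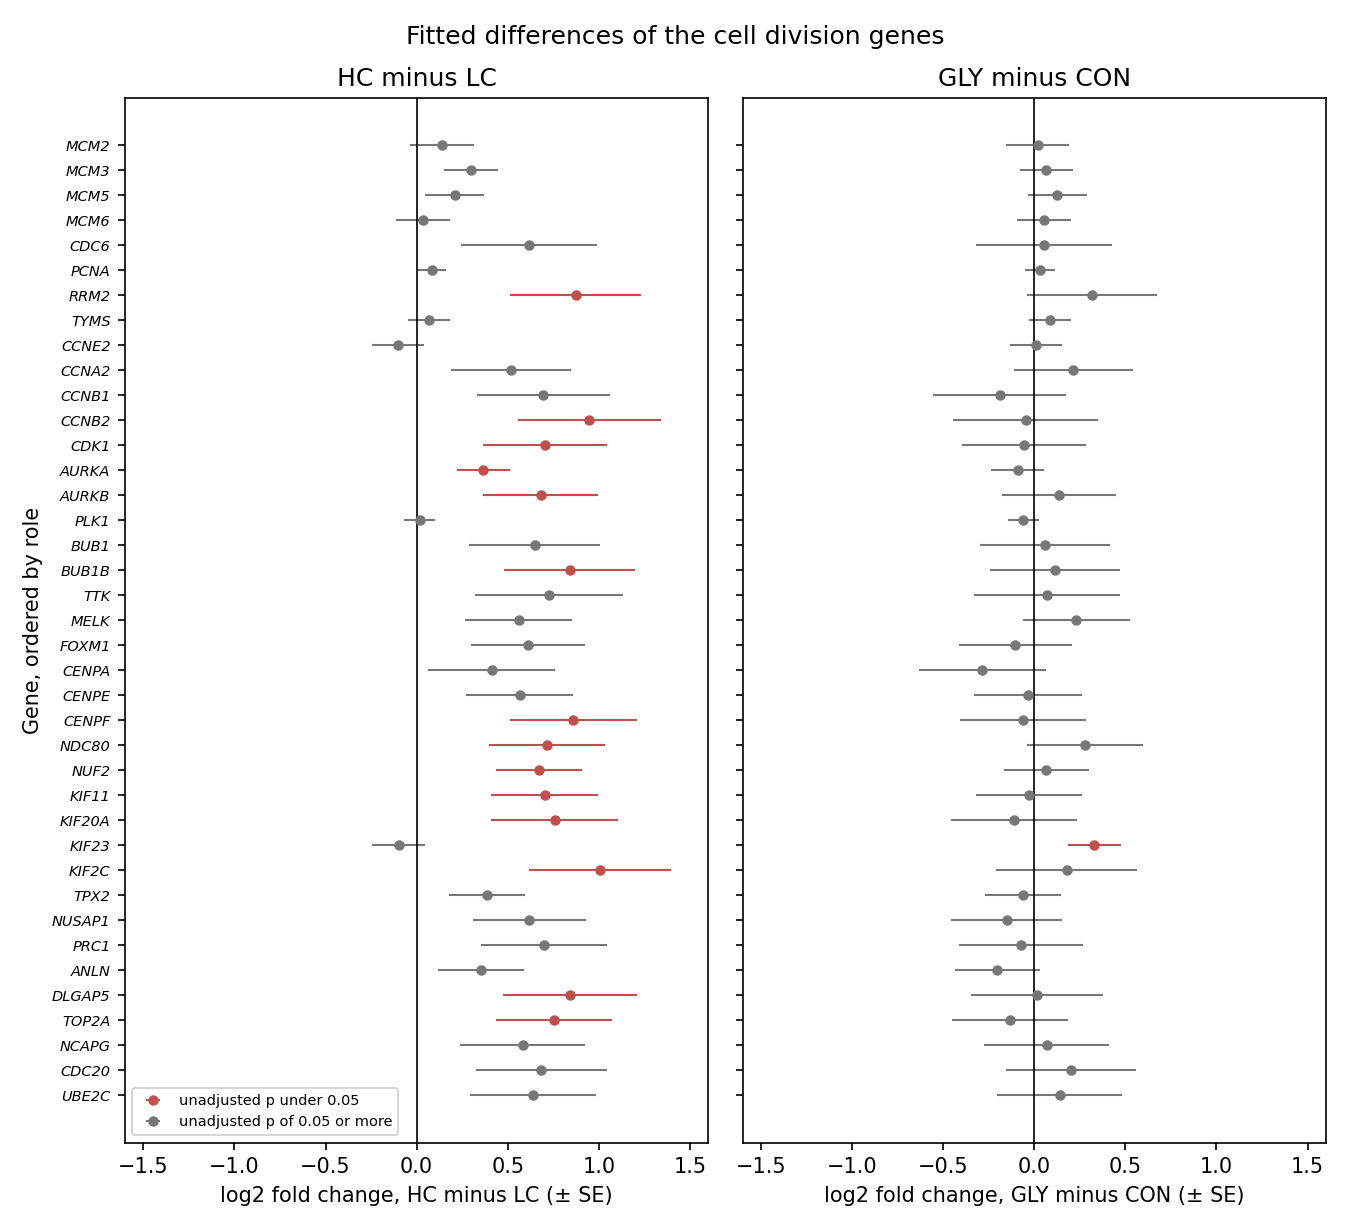
Fitted log2 fold change with its SE (edgeR) of each of the 39 cell division genes, HC minus LC with treatment as a covariate on the left and GLY minus CON with CFP as a covariate on the right. Red points have an unadjusted p under 0.05, which 14 genes reached on the left and KIF23 alone on the right, and no gene was called after adjustment.

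Among the 9 members of the replication group, the median log2 fold change between HC and LC groups was 0.14. MCM2, a subunit of the replicative helicase, had 3.19 CPM in the lowest, 5.05 in the median and 7.59 in the highest HC cow, and 2.003, 4.60 and 10.5 CPM in LC cows. The highest MCM2 value was thus that of an LC cow, and the log2 fold change was 0.14 ± 0.17 (SE, adjusted p = 0.796). PCNA had 17.8, 22.2 and 29.8 CPM in HC cows and 17.7, 20.6 and 29.1 CPM in LC cows.

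Both ranges of PCNA nearly coincided, and its log2 fold change was 0.08 ± 0.08 (SE, adjusted p = 0.719). RRM2 was the only replication gene at an unadjusted p under 0.05. It had 0.705, 2.81 and 12.4 CPM in HC cows and 0.850, 1.75 and 4.71 CPM in LC cows, with 5 HC cows above and 2 below every LC cow. The log2 fold change of RRM2 was 0.87 ± 0.36 (SE, adjusted p = 0.262). TYMS, MCM3 and CDC6 had log2 fold changes of 0.07, 0.30 and 0.62, with SEs of 0.11, 0.15 and 0.37.

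The median log2 fold change of the 30 members of the mitosis group was 0.68, and 13 of them were at an unadjusted p under 0.05. Both mitotic B cyclins, which activate CDK1, had their highest values in HC cows. CCNB2 had 0.112 CPM in the lowest, 0.455 in the median and 2.37 in the highest HC cow and 0, 0.411 and 0.802 CPM in LC cows. The medians of CCNB2 were close together, and 7 HC cows lay above every LC cow (log2 fold change 0.95 ± 0.39, adjusted p = 0.263). CCNB1 had 0.0881, 0.636 and 2.53 CPM in HC cows and 0.1002, 0.423 and 1.26 CPM in LC cows (log2 fold change 0.70 ± 0.37, adjusted p = 0.404). CDK1 itself had 0.264, 1.08 and 4.07 CPM in HC cows and 0.373, 0.936 and 1.97 CPM in LC cows.

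For CDK1, 5 HC cows exceeded every LC cow and 1 lay below all of them, and the log2 fold change was 0.70 ± 0.34 (SE, adjusted p = 0.354). TOP2A had a log2 fold change of 0.75 ± 0.32 (SE, adjusted p = 0.275). Of the mitotic kinases, AURKA, which matures the spindle poles, had 1.38, 1.98 and 3.31 CPM in HC cows and 1.01, 1.85 and 2.77 CPM in LC cows. The groups of AURKA overlapped over most of their range (log2 fold change 0.37 ± 0.15, adjusted p = 0.248). TTK, a kinase of the spindle checkpoint, had a log2 fold change of 0.73 ± 0.40 (SE) and FOXM1, which activates many mitotic genes, one of 0.61 ± 0.31, both with an unadjusted p above 0.05.

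The smallest p of the list was that of NUF2, a gene of the kinetochore, the structure that joins chromosomes to the spindle. NUF2, a subunit of the NDC80 complex that binds microtubules, had 0.714, 1.89 and 4.45 CPM in HC cows and 0.585, 1.26 and 2.44 CPM in LC cows. Of the 16 HC cows, 7 lay above every LC cow, and the log2 fold change was 0.67 ± 0.24 (SE, adjusted p = 0.18). CENPF had 0.528, 2.02 and 6.49 CPM in HC cows and 0.532, 1.79 and 3.89 CPM in LC cows. Its lowest values were alike in both, and 6 HC cows exceeded every LC cow (log2 fold change 0.86 ± 0.35, adjusted p = 0.253).

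KIF2C, a kinesin that takes microtubules apart to correct wrong attachments, had the largest log2 fold change of the list with 1.01 ± 0.39 (SE, adjusted p = 0.232). It had 0.088, 0.488 and 1.22 CPM in HC cows and 0.0501, 0.196 and 0.722 CPM in LC cows, and 6 HC cows lay above every LC cow. The other members at an unadjusted p under 0.05 were KIF11, BUB1B, DLGAP5, NDC80, KIF20A and AURKB, with log2 fold changes between 0.68 and 0.84. The members with an estimate below 0 were CCNE2 (-0.10 ± 0.14) and KIF23 (-0.10 ± 0.14). KIF23 had 11.6, 18.8 and 26.2 CPM in HC cows and 10.6, 18.7 and 33.9 CPM in LC cows, and 4 LC cows exceeded every HC cow.

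Within CON cows, the members with an unadjusted p under 0.05 between HC and LC were all mitotic genes. In CONHC against CONLC, edgeR called 0 of the 39 genes and 0% of all genes tested, and DESeq2 called 0 of the 39. At an unadjusted p under 0.05, 6 of the 39 genes were higher in CONHC, where 2.71% of all genes tested were, and 0 were lower, where 3.25% of all genes were, and DESeq2 gave 7 higher genes. The median log2 fold change was 0.59 over the 39 genes, -0.03 over the replication group and 0.72 over the mitosis group. CCNB2 ranged from 0.143 to 2.37 CPM in CONHC with a median of 0.451 and from 0 to 0.657 CPM in CONLC with a median of 0.369. The ranges of CCNB2 overlapped, and its log2 fold change was 1.31 ± 0.55 (SE, adjusted p = 0.775). The other 5 were NUF2 (0.78 ± 0.33), KIF2C (1.25 ± 0.56), AURKA (0.46 ± 0.21), CDK1 (1.04 ± 0.48) and KIF11 (0.85 ± 0.42), the last a kinesin that pushes the spindle poles apart. The count of 6 was 0 without CONHC cow 41 and 0 without CONHC cow 208, 2 without CONHC cow 133, between 1 and 3 without CONLC cow 60, 103, 145, 166 or 941, and 12 without CONLC cow 169.

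Within GLY cows, 3 of the 4 genes at an unadjusted p under 0.05 were genes of origin licensing. A gene below this level in one treatment and above it in the other is not shown to differ between them, and the interaction of each gene is given further on. In GLYHC against GLYLC, edgeR called 0 of the 39 genes, against 0.201% of all genes tested, and DESeq2 called 0. At an unadjusted p under 0.05, 4 of the 39 genes (10.3%) were higher in GLYHC in edgeR, where 5.06% of all genes tested were, and 4 in DESeq2. In edgeR 0 were lower, where 7.45% of all genes were. The median log2 fold change was 0.56 over the 39 genes, 0.46 over the replication group and 0.58 over the mitosis group. CENPF (0.945 ± 0.51) and BUB1B (0.87 ± 0.52), named after their values were seen, did not reach this level. Their estimates were larger than that of MCM3, with wider SEs. MCM3 ranged from 5.15 to 13.6 CPM in GLYHC with a median of 8.34 and from 3.87 to 8.30 CPM in GLYLC with a median of 5.66. Its log2 fold change was 0.56 ± 0.20 (SE, adjusted p = 0.248).

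MCM2 ranged from 3.92 to 7.59 CPM in GLYHC and from 2.003 to 6.27 CPM in GLYLC (log2 fold change 0.49 ± 0.24, adjusted p = 0.385), and MCM5 from 4.67 to 10.1 CPM and from 2.60 to 7.34 CPM (0.46 ± 0.22, adjusted p = 0.398). FOXM1 ranged from 0.286 to 0.978 CPM in GLYHC and from 0.0501 to 0.441 CPM in GLYLC. The values of FOXM1 rest on few reads, and its log2 fold change was 1.002 ± 0.45 (SE, adjusted p = 0.353). With 1 cow left out, the unadjusted p under 0.05 was lost in 20 of 31 fits for MCM5, 10 for MCM2, 6 for FOXM1 and 0 for MCM3. Without GLYLC cow 912, whose library held markers of intestinal epithelium, the count of 4 was 1. It was also 1 without GLYHC cow 127 or 131 or GLYLC cow 102 or 544, 2 without CONLC cow 166, GLYHC cow 152 or 154 or GLYLC cow 905, 7 without GLYHC cow 32 and 9 without GLYHC cow 37. In the comparison of HC with LC groups, leaving out GLYLC cow 912 gave 12 genes in place of 14.

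Glyphosate was examined in the same way, and the fitted differences of the cell division genes went in either direction at both CFP. In GLYHC against CONHC the median log2 fold change of the 39 genes was 0.05, with 22 estimates above 0 (51.5% of all genes tested) and a range from -0.62 to 0.37. In GLYLC against CONLC the median was 0.07 with 23 above 0 (49.4% of all genes) and a range from -0.51 to 0.44. In all GLY against all CON cows with CFP as a covariate the median was 0.03 with 23 above 0 (51.5% of all genes). The estimates of GLY against CON ran from -0.29 to 0.33. For TOP2A this difference was -0.13 ± 0.32 (SE), for CDK1 -0.06 ± 0.34, for CCNB1 -0.19 ± 0.36, for MCM2 0.02 ± 0.17 and for PCNA 0.03 ± 0.08. With SEs of this size, changes of PCNA could be bounded more closely than those of the mitotic genes.

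EdgeR called 0 of the 39 genes in each of the 3 glyphosate comparisons, and DESeq2 also called 0. The share of all genes tested that edgeR called was 0% in GLYHC against CONHC, 0.0628% in GLYLC against CONLC and 0% in GLY against CON. At an unadjusted p under 0.05 there were 0 of the 39 genes in GLYHC against CONHC (2.92% of all genes tested), 0 in GLYLC against CONLC (5.65%) and 1 in GLY against CON (3.92%), and DESeq2 on all cows gave the same 3 counts. With only the cows of GLYHC and CONHC in the fit, 2 of the 39 reached this level in edgeR and 2 in DESeq2. The gene in GLY against CON was KIF23, which ranged from 11.6 to 21.96 CPM in CONHC, from 13.4 to 26.2 in GLYHC, from 10.6 to 33.9 in CONLC and from 12.7 to 31.6 in GLYLC. The groups of KIF23 overlapped almost wholly, and its log2 fold change was 0.33 ± 0.14 (SE, adjusted p = 0.9999), with no such level reached when GLYLC cow 102 was left out.

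The interaction asked whether the effect of CFP differed between GLY and CON cows. It is the log2 fold change of GLYHC over GLYLC minus that of CONHC over CONLC. EdgeR and DESeq2 called 0 of the 39 genes, edgeR called 0% of all genes tested, and the median over the 39 genes was -0.05. MCM2 alone was at an unadjusted p under 0.05, a level that 4.21% of all genes reached, and DESeq2 gave 1 gene as well. The log2 fold change of MCM2 between HC and LC was 0.49 ± 0.24 (SE) in GLY cows and -0.20 ± 0.23 in CON cows, and the interaction was 0.69 ± 0.33 (adjusted p = 0.9985). All 5 genes of origin licensing had an interaction above 0, between 0.16 and 0.69. CONLC cow 260 was the highest cow of CONLC for each of these 5 genes, with 10.5 CPM of MCM2 against a CONLC median of 4.84. Over the 39 genes 18 were above 0, against 51.7% of all genes tested. Of the 5 genes of the cyclins and CDK1, 2 were above 0, and their median was -0.64. The level of MCM2 was lost when any of 15 single cows was left out, CONLC cow 260 and GLYLC cow 912 among them. In the test for any difference among the 4 groups, edgeR called 0 of the 39 genes, against 0.773% of all genes tested, and 0 were at an unadjusted p under 0.05, a level that 9.39% of all genes reached. DESeq2 called 0 there and gave 2 at that level.

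Other genes of the cell cycle were read from 4 further lists. Among 24 other mitosis genes, of which 23 were tested, 10 were higher in HC than in LC groups at an unadjusted p under 0.05 (5.88% of all genes tested), 0 were lower, and the median log2 fold change was 0.46. With 1 cow left out, the count of 10 lay between 7 and 17. At the adjusted threshold, 2 of the 23 were called, both higher in HC groups, where 1.45% of all genes tested were called in either direction. SPC24, a subunit of the NDC80 complex like NUF2, had 2.25, 7.85 and 35.6 CPM in the lowest, median and highest HC cow and 1.66, 2.91 and 10.5 CPM in LC cows (log2 fold change 1.16 ± 0.32, adjusted p = 0.0918). SMC2, a core subunit of condensin that compacts mitotic chromosomes, had 3.97, 5.78 and 9.13 CPM in HC cows and 3.19, 4.62 and 5.99 CPM in LC cows (0.41 ± 0.12, adjusted p = 0.0958). The groups overlapped for both, with 4 and 7 HC cows above every LC cow. Both calls were close to the threshold, and of the 31 fits that left out 1 cow 21 lost that of SPC24 and 23 that of SMC2, among them for both genes the fit without GLYLC cow 912 (1.21 and 0.37). The checkpoint protein MAD2L1 followed with 0.39 ± 0.12 (SE, adjusted p = 0.13).

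Among 20 other replication genes, of which 19 were tested, 2 were higher in HC groups at an unadjusted p under 0.05 and 0 lower, against 5.88% and 7.81% of all genes tested, with a median log2 fold change of 0.08. They were POLA1, the catalytic subunit of DNA polymerase alpha (0.23 ± 0.07, adjusted p = 0.144), and CHAF1A, a chaperone that places histones on new DNA (0.33 ± 0.16, adjusted p = 0.36). In GLY against CON, 3 of the 19 were at this level, which 3.92% of all genes tested reached. They were GINS1 and MCM7 of the replicative helicase and the flap nuclease FEN1, with log2 fold changes of 0.32 ± 0.13, 0.13 ± 0.06 and 0.22 ± 0.10 and adjusted p = 0.9999 for each.

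Of 15 genes of cell cycle entry, 1 was higher and 1 lower in HC groups at an unadjusted p under 0.05, with a median of -0.02. Of all genes tested, 5.88% were higher and 7.81% lower at this level. E2F8, a repressor that acts late in S phase, had a log2 fold change of 0.89 ± 0.42 (adjusted p = 0.334) on a median of 4 reads per cow, and E2F7, its partner, had -1.39 ± 0.64 (adjusted p = 0.326) on a median of 0 reads, and -0.43 with a prior count of 2. Of 15 cell cycle inhibitors, also 1 was higher and 1 lower at this level, beside the same shares of all genes, and the median of the list was 0.01. BTG1, an antiproliferative gene of resting cells, was higher (0.35 ± 0.11, adjusted p = 0.123) and CDKN1A, the CDK inhibitor p21, lower (-0.43 ± 0.18, adjusted p = 0.276, and -0.20 without GLYLC cow 912). CCND1, the cyclin D1 that starts the cycle, was singled out after its values were seen. It had medians of 5.10 CPM in CONHC, 7.81 in CONLC, 7.43 in GLYHC and 4.01 in GLYLC, with an interaction of 1.62 ± 0.45 on the log2 scale (adjusted p = 0.9985).

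Markers of the cell types that liver can hold were read beside these results. Hepatocyte markers summed to between 135800 and 225700 CPM in all cows, as in liver. Of all genes tested, 5.88% were higher and 7.81% lower in HC groups at an unadjusted p under 0.05. Of 10 markers of macrophages and Kupffer cells, all tested and none with a median of 0 reads, 6 were higher and 1 was lower in HC groups at that level, with a median log2 fold change of 0.33. Their sum ran from 783 to 1737 CPM in CONHC, from 889 to 1864 in GLYHC, from 893 to 1469 in CONLC and from 911 to 1510 in GLYLC. CD5L and CD68 were called (0.41 ± 0.11 and 0.61 ± 0.17, adjusted p = 0.086 and 0.0948), and 19 and 22 of the 31 fits that left out 1 cow lost these calls, the fit without GLYLC cow 912 among them (0.37 and 0.55). The part of macrophages in the values of the cell division genes was not tested. Of 6 markers of fibroblasts and stellate cells, 5 were lower in HC groups at that level, 1 of them called (DCN, -0.50 ± 0.10, adjusted p = 0.0275), and their sum reached 2160 CPM in CONLC cow 103 against at most 457 in any other cow. Of 10 hepatocyte markers, TF and APOB were higher in HC groups at that level and none was lower, with a median of 0.12.

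Markers of epidermis, a tissue outside the liver, also had higher fitted levels in HC groups. With both treatments together, 3 of the 5 tested markers were higher in HC cows at an unadjusted p under 0.05, against 5.88% of all genes tested. In GLYHC over GLYLC 3 were higher at that level (5.06% of all genes), with a median log2 fold change of 1.08. In CONHC over CONLC 0 were (2.71% of all genes), with a median of 0.09. These 2 counts do not show a difference between treatments. The interaction was at that level in 1 of the 5 markers, against 4.21% of all genes. Of 7 listed markers 5 were tested, and 4 of the 7 (DSG1, KRT1, KRT14 and KRT2) had a median of 0 reads. Their sum ran from 0.770 to 3.499 CPM in CONHC, from 1.11 to 10.1 in GLYHC, from 0.847 to 1.91 in CONLC and from 0.905 to 3.03 in GLYLC, with the highest sums in GLYHC cows 154 and 32. The keratins KRT1 (log2 fold change 4.23 ± 1.09, adjusted p = 0.0732) and KRT14 (2.396 ± 0.68, adjusted p = 0.0958) were called. DESeq2 did not call KRT1 and gave no adjusted p for KRT14. With 1 cow left out, 5 of the 31 fits lost the call of KRT1 and 23 that of KRT14, both being lost without GLYHC cow 32, GLYHC cow 154 or GLYLC cow 912. Leaving out GLYHC cow 154 gave 13 cell division genes higher in HC groups in place of 14, and leaving out GLYHC cow 32 gave 23. Markers of intestinal epithelium were lower in HC groups in 6 of 8 at that level, against 7.81% of all genes tested, with a median log2 fold change of -5.46. FABP2, MUC13 and OLFM4 were called (-9.14 ± 1.74, -7.13 ± 1.51 and -5.19 ± 1.198, adjusted p = 0.0275, 0.0307 and 0.0451). They had 205.8, 25.1 and 11.5 CPM in GLYLC cow 912 against at most 0.163, 0.0880 and 0.143 CPM in any other cow, and without this cow they were not tested, as they did not pass the filter. Of the remaining lists, 1 erythroid marker was lower in HC groups and none of the markers of T and NK cells, B and plasma cells, neutrophils, endothelium and bile ducts was at that level.

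TOP2A was correlated over the 31 cows with the summed markers of 11 cell types and with the assigned reads, and none of these 12 correlations had an adjusted p under 0.05. For macrophage markers r was 0.321 (permutation p = 0.0793, adjusted p = 0.594) and rho 0.37 (permutation p = 0.042, adjusted p = 0.252). For markers of T and NK cells r was 0.301 (permutation p = 0.099, adjusted p = 0.594) and rho 0.39 (permutation p = 0.0313, adjusted p = 0.252), and for the assigned reads r was -0.165 (permutation p = 0.376, adjusted p = 0.705) and rho -0.158 (permutation p = 0.394, adjusted p = 0.673). Without the 2 cows farthest from the median of each measure, r was 0.306 for macrophage markers, 0.424 for markers of T and NK cells, 0.459 for intestinal markers and -0.321 for the assigned reads. GLYLC cow 912 had intestinal markers at a sum of 361.6 CPM, against at most 83.6 CPM in any other cow. Without this cow, r of TOP2A with intestinal markers was 0.457 (adjusted permutation p = 0.133), against 0.096 with it (rho = 0.294, adjusted permutation p = 0.433). Of the 8 intestinal markers with a row, 5 had a median of 0 reads, among them FABP2 and ALPI. In cows other than GLYLC cow 912, FABP2, MUC13 and OLFM4 reached at most 0.163, 0.0880 and 0.143 CPM. The sum in those cows thus rested mostly on other markers of the list, and its r with TOP2A does not show intestinal tissue in them.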

How the data were processed

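Per the labels and the paper's methods, the authors prepared libraries with a TruSeq Stranded mRNA kit, used Trim Galore for trimming, HISAT2 2.1.0 for alignment to UMD3.1 and HTSeq 0.8.0 for counting, and deposited raw read counts per gene. Whether counting used strand is not given in the sources used here, so that reads of overlapping antisense genes may be included. The authors' normalized table, from DESeq2 1.20.0, was not used here. GEO's labels gave group and animal number of all 31 cows, and 1 library per cow was taken as 1 replicate. No batch is named in the labels. No pair of cows within a group differed by sampling noise alone (chi-square per gene at least 24.5 over 105 pairs).

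Counts were normalized by TMM and tested in R 4.3.3 with edgeR 4.0.16 (quasi-likelihood F test) on the 15916 genes with at least 20 reads over all cows. A model of the 4 groups gave the pairwise comparisons, the interaction and the test for any difference, and additive models gave HC against LC and GLY against CON. All p are two-sided and unadjusted unless named as adjusted (Benjamini-Hochberg over all genes tested). A gene was called at p under 0.05 and adjusted p under 0.1. SE was taken from the log2 fold change and F (its size over the root of F). Log2 CPM used a prior count of 2. Correlations were tested by permutation in Python 3.11.15 with numpy 2.4.6. As alternatives, RLE or upper-quartile factors replaced TMM, and the filter was dropped (at least 1 read) or replaced by filterByExpr with a minimum of 10. Further alternatives were a robust fit, a prior count of 2 for fold changes, DESeq2 1.42.0, a threshold of 0.05 on the adjusted p, fits of the 2 compared groups alone, and each cow left out in turn. The steps were tested on simulated counts.

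The members, the other lists and the tests were chosen with earlier results of these data known. Genes were named by a rule: TOP2A, CDK1, PCNA, MCM2 and CCNB1, up to 6 members per comparison with the smallest p under 0.05, the 4 with the highest and the 4 with the lowest mean CPM, and of each list of other cell cycle genes up to 3 genes with the smallest p under 0.05 in the 2 additive models and every called gene. Others are said to be chosen after their values were seen. The planned reference gene MKI67 had no row, and TOP2A was used in its place. Of the cell type markers, the called genes are named. TF and APOB, and the markers named for a median of 0 reads, were named after their values were seen. Counts at an unadjusted p under 0.05 and the fold changes of single genes were recomputed under the same alternatives, which was decided after the data were seen. Sequences and coordinates were not used here.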

Additional observations from a re-analysis of the deposited data

Results flagged for a closer look

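For each of the 39 genes and each group, the highest and lowest cow were compared with the next one on log2 CPM by Dixon's test, which gives about 1 in 20 groups by chance. Over 156 pairs of gene and group, 8 values in 6 cows stood apart, where 1 in 20 would be 7.8, so that this number is about what chance gives. Of the 8 values, 6 were the lowest of their group. In CONLC, CCNA2 (cyclin A2) had 0.236 CPM in cow 166 against 0.665 to 1.15 in the other cows, and CCNB2 had 0 CPM in cow 941 against 0.197 to 0.657. In GLYLC, TYMS had 6.10 CPM in cow 912 against 11.2 to 17.0, and in cow 905 the kinetochore motor CENPE had 0.373 CPM against 0.651 to 0.854 and the condensin subunit NCAPG 0.106 against 0.657 to 1.59. In GLYHC, KIF11 had 0.132 CPM in cow 37 against 0.818 to 2.79. The other 2 were high values of CONLC cow 260, with 29.1 CPM of PCNA against 17.7 to 22.1 and 1.27 CPM of the kinase MELK against 0.298 to 0.538. No interaction of a cell division gene was called.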

How the results depend on the processing

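In 312 recomputed counts of called members, under every alternative and with each cow left out, no cell division gene was called in any comparison, but DESeq2 on CONHC and CONLC alone gave no adjusted p for CCNB2, NUF2, KIF2C, AURKA, CDK1 and KIF11. The median between HC and LC groups lay between 0.57 and 0.64 under the other alternatives and between 0.49 and 0.72 with 1 cow left out, and with 1 cow left out those of CONHC against CONLC and GLYHC against GLYLC lay between 0.38 and 0.79 and between 0.38 and 0.73. The medians of GLYHC against CONHC (-0.11 to 0.24), of GLYLC against CONLC (-0.10 to 0.20), of GLY against CON (-0.06 to 0.10) and of the interaction (-0.16 to 0.15) took both signs with 1 cow left out. Counts at an unadjusted p under 0.05 were less stable with 1 cow left out: members higher in HC ran from 6 to 25 in HC against LC, from 0 to 12 in CONHC against CONLC and from 1 to 9 in GLYHC against GLYLC, and without a left-out cow from 14 to 17, 5 to 7 and 3 to 5. With 1 cow fewer, the count of other mitosis genes higher in HC was between 7 and 17 (10 with all cows, 17 without CONHC cow 7 or 134 or GLYHC cow 32 or 37, and 16 without GLYLC cow 209). Of 10 genes of the other lists called between HC and LC groups, 6 (SPC24, SMC2, CD5L, CD68, KRT1 and KRT14) were not called at an adjusted p under 0.05. The call of SPC24 was also lost with no filter and in the robust fit, and those of SMC2, CD68 and KRT14 with no filter. DESeq2 added calls of POLA1, MAD2L1 and BTG1 and lost those of KRT1, FABP2 (0.80), MUC13 (0.042) and OLFM4 (-0.41), with the sign of FABP2 and MUC13 turned, and the cause was not tested, while it gave no adjusted p for KRT14. With a prior count of 2 the fold changes of KRT1, KRT14 and E2F7 were 1.99, 0.98 and -0.43. Of 1680 recomputed fold changes of named genes 2 changed sign, 126 lost a call and 13 gained one. No paired analysis was possible because the groups share no animal numbers. With a median under 20 reads per cow in 21 of the 39 genes, depth limits the precision of single members.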
